A study of Mus musculus with 3 samples.

Results

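The intermediate filament, lamin and plectin genes were Des, Vim, Nes, Synm, Krt8, Krt18, Lmna, Lmnb1, Lmnb2 and Plec. They were chosen by name, as the genes whose symbol in the deposited count table equals one of these, which found 10 of 56748 genes.

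Gene expression was measured by RNAseq in adult mouse cardiomyocytes (ACMs), heart muscle cells isolated from wild-type mice at 8 to 10 weeks of age and cultured. The study asked which transcripts respond to oncostatin M (OSM), a cytokine of the IL-6 family that signals through gp130. After 3 to 4 h of plating, ACMs were moved to serum-free medium and given vehicle (0.1% BSA), 10 ng/mL mouse OSM or 10 ng/mL human IL-6 for 16 h. All cultures held 10 mM BDM, a compound that stops contraction. RNA was pooled before sequencing and each treatment had 1 library, with 24939980 counts in the vehicle library, 26362446 in the IL-6 library and 30773001 in the OSM library. There are therefore no replicates, no P-value is given and no difference has a replicate check. Intervals are 95% intervals of the counts, cover counting error only, and compare libraries, not conditions. The label of the cells was checked against 8 cardiomyocyte markers, all of which had counts in each library. Their summed FPKM was 8633 with vehicle, 8910 with IL-6 and 11114 with OSM, and the most abundant was Actc1. Of the 8, 0 were higher with OSM than with vehicle and 2 were lower, Ryr2 and Ttn, and relative to genes of like length, described below, neither was called.

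Intermediate filaments are flexible cytoskeletal polymers that carry mechanical load and position organelles. In cardiomyocytes, desmin filaments surround the Z-discs and tie the myofibrils to each other, to the nucleus, to the costameres and to the desmosomes. Lamins form the mesh under the inner nuclear membrane, and plectin links filaments to these structures. Desmin and lamin A/C mutations cause cardiomyopathy, and nestin and vimentin are better known from immature muscle and from non-muscle cells.

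Levels of the genes spanned several orders of magnitude. FPKM as deposited, which divides the count by gene length and library size, was used to compare genes. Des reached 863 FPKM with vehicle, 854.5 with IL-6 and 1341 with OSM, which made up 92.6%, 93.0% and 90.9% of the summed FPKM of the 10 genes. With vehicle, the order below Des was Lmna (29.5 FPKM), Plec (21.3), Nes (10.5), Lmnb2 (2.32), Vim (1.55), Synm (1.38), Lmnb1 (0.908), Krt18 (0.880) and Krt8 (0.384). The counting intervals of Vim and Synm overlapped, as did those of Lmnb1 and Krt18, so these neighbours were not resolved. The first 5 places were the same with IL-6, followed by Synm, Lmnb1 and Vim, of which neighbouring intervals overlapped. With OSM, Nes stood at 47.3 FPKM, above Plec at 23.4 and below Lmna at 51.5, and Synm (0.781) came after Lmnb1 (1.63). Without Des, Nes accounted for 15.3% of the summed FPKM with vehicle, 14.0% with IL-6 and 35.4% with OSM.

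**Figure D1:**
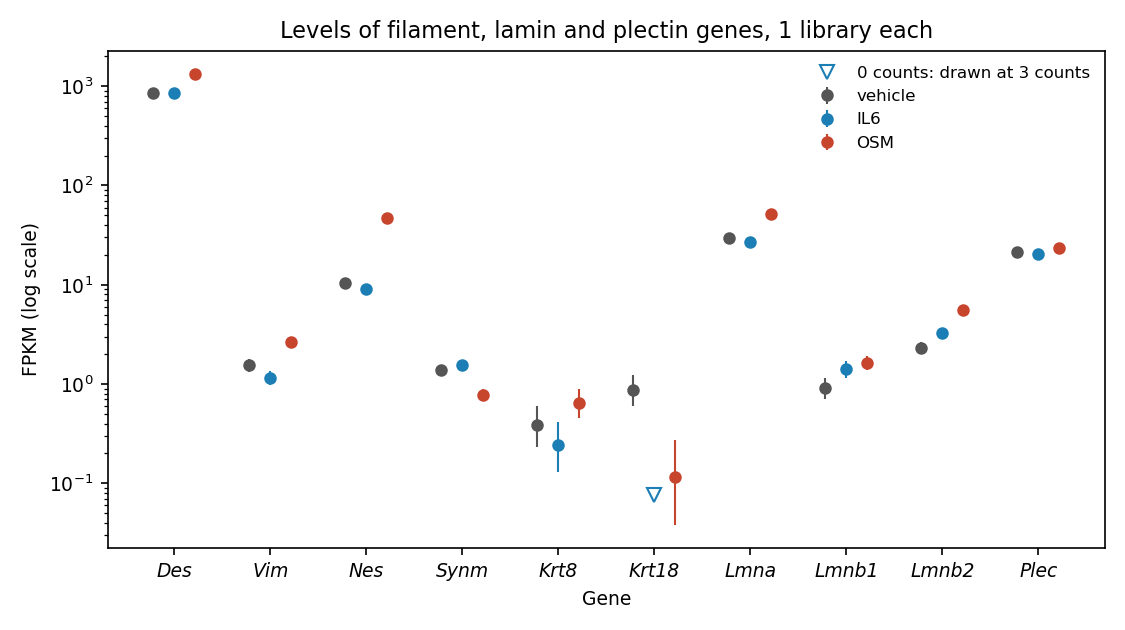
FPKM of the 10 genes (log axis) in the vehicle, IL-6 and OSM libraries, 1 library each, with bars for the 95% counting interval. Nes stood at 10.5, 9.01 and 47.3 FPKM, and the open triangle marks Krt18 with IL-6, which had 0 counts and is drawn at the level of 3 counts.

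Of the 10 genes, 2 were higher with OSM than with vehicle (Nes and Lmnb2) and 1 was lower (Krt18). Calls required the entire interval to lie outside 2-fold, and by this rule 3.74% of all 15537 compared genes were higher and 5.43% were lower. The median log2 fold change of the 10 genes was 0.77, with 8 of 10 above 0, beside a median of 0.0046 over all compared genes. With IL-6 against vehicle, 0 of 10 were higher, beside 1.77% of 15472 compared genes, and 1 was lower (Krt18), beside 1.74%. Their median was -0.09, beside -0.0019 over all compared genes. With OSM against IL-6, 9 genes had the 10 counts needed to be compared, of which 1 was higher (Nes), beside 4.24% of 15544, and 0 were lower, beside 5.42%. Their median was 0.77, beside 0.0028 over all compared genes. The vehicle library enters the first 2 comparisons and the OSM library enters the first and the last.

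Low counts were even more often than odd. Among genes with 1 to 20 counts, 62.1% with vehicle, 61.4% with IL-6 and 63.5% with OSM had an even count, against 50.2%, 51.3% and 50.5% of genes with 21 to 100 counts. The cause was not tested. Because the intervals assume independent counts, they were also taken from counts divided by 2, an alternative chosen after seeing the data. Nes then stayed higher with OSM, while Lmnb2 (0.95 to 1.55 on the log2 scale) and Krt18 (-5.64 to -0.99) no longer passed.

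**Figure D2:**
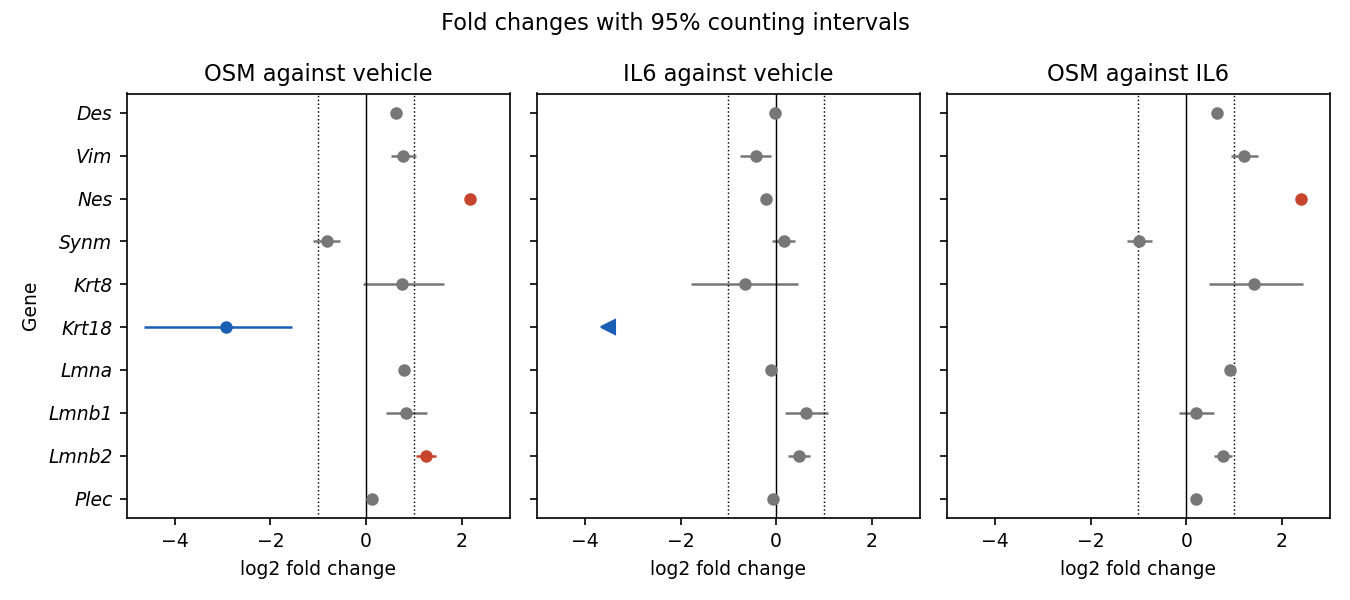
log2 fold changes of TMM-scaled counts of the 10 genes in the 3 comparisons, with bars for the 95% counting interval and dotted lines at 2-fold. Red marks genes called higher and blue genes called lower, the triangle is a bound for Krt18, which had 0 counts with IL-6, and Krt18 was not compared between OSM and IL-6.

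Desmin, the type III protein of the muscle filament, is encoded by Des (ENSMUSG00000026208), on the plus strand of chromosome 1 of GRCm39 from 75336973 to 75345223. Des had 81983 counts with vehicle, 86926 with IL-6 and 150385 with OSM. The OSM library stood above the others, at a log2 fold change of 0.63 (0.62 to 0.65) against vehicle, or 1.55-fold, which is beyond counting error and within 2-fold. With IL-6 the value was -0.02 (-0.03 to -0.0015), and its sign changed when total counts were used for scaling. By FPKM, Des ranked 36 among all genes with vehicle and with IL-6 and 32 with OSM.

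Vim (ENSMUSG00000026728, chromosome 2 from 13578738 to 13587637) encodes vimentin, the type III protein of mesenchymal and endothelial cells. It had 186 counts with vehicle, 148 with IL-6 and 377 with OSM. The log2 fold change with OSM was 0.78 (0.52 to 1.04), so 2-fold lay within its interval, and with IL-6 it was -0.43 (-0.75 to -0.11). With counts divided by 2, the IL-6 interval held 0 (-0.89 to 0.03). The FPKM of Vim was 0.00180 of that of Des with vehicle, 0.00135 with IL-6 and 0.00198 with OSM. Between OSM and vehicle this ratio changed by 0.14 on the log2 scale (-0.11 to 0.40), which is within counting error. Between IL-6 and vehicle it changed by -0.41 (-0.73 to -0.10), with an interval that held 0 when counts were divided by 2. Between OSM and IL-6 it changed by 0.56 (0.28 to 0.83), and by 0.17 to 0.95 with counts divided by 2.

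Nes (ENSMUSG00000004891, plus strand of chromosome 3 from 87878385 to 87887758) encodes nestin, a large type IV protein that needs vimentin or another partner to form filaments. It had 1707 counts with vehicle, 1567 with IL-6 and 9059 with OSM. The vehicle and IL-6 libraries were close to each other and the OSM library was far above both. The log2 fold change with OSM was 2.17 (2.09 to 2.24) against vehicle, or 4.49-fold, and 2.39 (2.31 to 2.47) against IL-6, or 5.24-fold. With edgeR's exact test at an assumed biological coefficient of variation of 0.4, Nes was called in neither comparison. A lower log2 fold change against vehicle was found for 97.3% of the compared genes. With IL-6 against vehicle, Nes was at -0.22 (-0.32 to -0.12), within 2-fold. Nes also stood higher relative to Vim with OSM: the ratio of Nes to Vim differed by 1.39 on the log2 scale between OSM and vehicle (1.12 to 1.65), and by 0.21 between IL-6 and vehicle (-0.12 to 0.53). A search covered 9878 genes, Nes included, that averaged 100 counts or more per library. The nearest to Nes by distance in the OSM and IL-6 log2 fold changes were Il17ra (distance 0.075), Slc35g2 (0.13) and Plscr1 (0.15). Il17ra, which encodes a receptor subunit for IL-17, had 332 counts with vehicle, 321 with IL-6 and 1762 with OSM.

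Promoter windows of Nes and Krt18 and 1 of 2 windows of Lmnb2 are shown because these genes were called, and 1 of 2 windows of Lmna because it held a motif of AP-1, a factor family induced by many cytokines. The windows are from RefSeq, for GRCm38.p6, and run from 250 bases before to 50 bases after a transcript start, with all motif positions counted from that start at 0. Coordinates are those of an exact match in GRCm39, found 1 time for each window. Of the 10 genes, 8 had an entry, with 10 windows in all, and Plec and Lmnb1 had none. Searched on both strands were TTCNNNGAA, the core of a STAT site, TGANTCA, the AP-1 motif, the CArG box bound by serum response factor, TATAAA, and GGGCGG, the GC box. Capitals mark any of these. The windows are Nes at chr3:87878150-87878449 on the plus strand, with GGGCGG at -73 and -62, Krt18 at chr15:101936401-101936700 on the plus strand, with none, Lmnb2 at chr10:80754030-80754329 on the minus strand, with GGGCGG at -7, and Lmna at chr3:88410610-88410909 on the minus strand, with GGGCGG at -52 and TGANTCA at 39. In the deposited annotation, the windows of Nes, Krt18 and Lmnb2 overlap the start of the gene, and that of Lmna lies inside the gene. The other windows of Lmnb2 and Lmna held none of the motifs.
Nes: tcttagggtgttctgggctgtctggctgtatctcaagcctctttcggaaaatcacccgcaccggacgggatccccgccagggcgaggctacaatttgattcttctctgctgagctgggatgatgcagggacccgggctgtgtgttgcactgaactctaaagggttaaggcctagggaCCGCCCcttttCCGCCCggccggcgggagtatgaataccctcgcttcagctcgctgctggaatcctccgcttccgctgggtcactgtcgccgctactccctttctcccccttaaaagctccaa
Krt18: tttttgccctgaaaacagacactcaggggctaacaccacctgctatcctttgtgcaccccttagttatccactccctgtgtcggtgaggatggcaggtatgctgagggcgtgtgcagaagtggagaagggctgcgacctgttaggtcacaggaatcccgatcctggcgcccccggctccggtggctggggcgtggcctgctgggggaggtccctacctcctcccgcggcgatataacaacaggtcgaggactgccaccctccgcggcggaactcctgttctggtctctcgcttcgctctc
Lmnb2: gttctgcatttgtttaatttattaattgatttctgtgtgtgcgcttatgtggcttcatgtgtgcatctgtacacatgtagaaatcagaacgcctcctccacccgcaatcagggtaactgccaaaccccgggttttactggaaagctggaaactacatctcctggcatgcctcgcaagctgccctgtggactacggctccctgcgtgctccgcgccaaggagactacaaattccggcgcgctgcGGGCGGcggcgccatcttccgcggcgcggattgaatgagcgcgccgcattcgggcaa
Lmna: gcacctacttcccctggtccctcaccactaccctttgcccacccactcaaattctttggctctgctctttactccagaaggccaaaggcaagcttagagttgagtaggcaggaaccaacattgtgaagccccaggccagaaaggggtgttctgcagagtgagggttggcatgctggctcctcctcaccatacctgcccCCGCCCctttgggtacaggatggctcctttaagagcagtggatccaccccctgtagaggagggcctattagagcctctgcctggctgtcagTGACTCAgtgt

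TTCNNNGAA was found in 0 of the 10 windows, beside 8.30% of all 32851 windows of this length, and TGANTCA in 1, beside 7.81%. The CArG box was in 0, beside 1.63%, TATAAA in 2 (Vim and Krt8), beside 13.6%, and GGGCGG in 4 (Des, Nes, Lmna and Lmnb2), beside 35.7%. A match describes these letters only, and sequence outside the windows was not searched.

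Synm (ENSMUSG00000030554, chromosome 7 from 67379908 to 67409490) encodes synemin, a type IV protein that joins desmin filaments and binds costamere proteins. It had 277 counts with vehicle, 331 with IL-6 and 185 with OSM, and was the sole gene of the 10 apart from Krt18 with its OSM value below vehicle. With OSM its log2 fold change was -0.82 (-1.10 to -0.55), so 2-fold lay within the interval, and with IL-6 it was 0.16 (-0.08 to 0.39). Relative to Des, Synm was 2.75-fold lower with OSM than with vehicle, a change of -1.46 on the log2 scale (-1.73 to -1.19) that needs no scaling of the libraries. Between IL-6 and vehicle this ratio changed by 0.17 (-0.06 to 0.40), within counting error. Relative to genes of like length, described below, Synm was at -0.60 and Des at 0.49 with OSM against vehicle, the same direction. Ttc23 overlaps Synm on the opposite strand and had 196, 275 and 191 counts, and whether the counting used the strand is not stated.

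Keratins 8 and 18 pair to form the filaments of simple epithelia, and their genes lie near each other on chromosome 15, Krt8 (ENSMUSG00000049382) from 101905133 to 101912917 and Krt18 (ENSMUSG00000023043) from 101936615 to 101940462. Both were near the limit of detection. Krt8 had 19 counts with vehicle, 13 with IL-6 and 38 with OSM. Its log2 fold change was 0.76 (-0.07 to 1.64) with OSM against vehicle, which was not resolved from 0 at this depth. With OSM against IL-6 it was 1.41 (0.47 to 2.44), above 0 with 2-fold within the interval. With counts divided by 2, that interval was 0.06 to 2.95. Krt18 had 32 counts with vehicle, 0 with IL-6 and 5 with OSM. It was lower with OSM by a log2 fold change of -2.92 (-4.64 to -1.55) and at least 11.4-fold lower with IL-6, against a floor of 3 counts in each library. The latter fold takes the vehicle count as exact, and the counting interval of the difference reaches -3.13 on the log2 scale. Between IL-6 and OSM it had too few counts to be compared. The partners stood apart: the ratio of Krt8 to Krt18 differed by 3.68 on the log2 scale between OSM and vehicle (2.10 to 5.25). Among the same 9878 genes, the nearest to Krt18 were Tbc1d32, Gbp6 and Btf3-ps1, at distances of 2.75, 2.86 and 2.92. Krt18 itself is below the count limit of this search, so genes of its level were not searched, and its IL-6 value in the distance is a bound. Pseudogenes can share reads with these genes: Krt8-ps matches 48.1% of the Krt8 transcript at 97% identity or more and had 0, 4 and 0 counts, and Gm5200 matches 88.1% of the Krt18 transcript at 90% and had 0 in each library.

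Lmna (ENSMUSG00000028063, minus strand of chromosome 3 from 88387454 to 88417263) encodes lamins A and C. It had 4357 counts with vehicle, 4311 with IL-6 and 8980 with OSM. The log2 fold change with OSM was 0.80 (0.75 to 0.85), or 1.74-fold, beyond counting error and within 2-fold. With IL-6 it was -0.12 (-0.18 to -0.05).

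Of the B-type lamin genes, which are expressed in most cells, Lmnb2 (ENSMUSG00000062075, chromosome 10 from 80737037 to 80754079) had 252 counts with vehicle, 377 with IL-6 and 708 with OSM. The log2 fold change was 1.25 (1.04 to 1.46) with OSM, or 2.38-fold, and 0.48 (0.25 to 0.72) with IL-6, so the IL-6 library lay between the others. The call with OSM was lost with scaling by total counts, with a 99% interval and with the trend on gene length removed. The nearest of the 9878 genes were Praf2, Ptk2b and Gfod2, at distances of 0.042, 0.053 and 0.065. Lmnb1 (ENSMUSG00000024590, chromosome 18) had 68 counts with vehicle, 113 with IL-6 and 144 with OSM, with log2 fold changes of 0.84 (0.42 to 1.28) with OSM and 0.63 (0.19 to 1.09) with IL-6. With counts divided by 2, the IL-6 interval of Lmnb1 held 0 (-0.0058 to 1.29). Marchf3 shares 14.9% of the Lmnb1 transcript in the GENCODE M39 annotation and had 202, 214 and 415 counts.

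A-type and B-type lamins build separate networks in the same lamina, so their ratio was compared. Lmna made up 90.1% of the summed lamin FPKM with vehicle, 85.4% with IL-6 and 87.8% with OSM. Between IL-6 and vehicle, the ratio of Lmna to Lmnb1 changed by -0.75 on the log2 scale (-1.19 to -0.31) and that of Lmna to Lmnb2 by -0.60 (-0.83 to -0.36). With counts divided by 2 both intervals stayed below 0, at -1.37 to -0.13 and -0.93 to -0.26. Between OSM and vehicle, the ratio of Lmna to Lmnb2 changed by -0.45 (-0.66 to -0.23), while that of Lmna to Lmnb1 changed by -0.04 (-0.46 to 0.38), within counting error. Relative to genes of like length, Lmna was at 0.90 with OSM against vehicle, Lmnb1 at 0.59 and Lmnb2 at 1.19. Lmna then stood above Lmnb1 and still below Lmnb2. Between OSM and IL-6, the ratio of Lmna to Lmnb1 changed by 0.71 (0.35 to 1.07) and that of Lmna to Lmnb2 by 0.15 (-0.04 to 0.34).

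Plec (ENSMUSG00000022565, minus strand of chromosome 15 from 76055174 to 76116774) encodes plectin, the plakin that anchors desmin filaments at Z-discs, costameres and the nucleus. It had 9782 counts with vehicle, 10029 with IL-6 and 12649 with OSM. Its log2 fold change was 0.13 (0.09 to 0.17) with OSM and -0.06 (-0.10 to -0.02) with IL-6, and the OSM value was the nearest to 0 among the 10 genes. Relative to Des, Plec was lower with OSM than with vehicle by 1.42-fold, a change of -0.50 on the log2 scale (-0.54 to -0.46). This direction turned relative to genes of like length, where Plec was at 0.86 and Des at 0.49. Parp10 overlaps Plec on the same strand and had 324, 289 and 414 counts.

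Gene length went along with the OSM values. Over 9445 protein-coding genes that averaged 100 counts or more, Spearman's rho between gene length and log2 fold change was -0.52 for OSM against vehicle. The value with IL-6 was -0.07, over 9361 genes. Genes do not replicate each other independently, and the source of this trend was not tested. Plec, the longest of the 10 genes at 18113 bases, stood 0.86 above the median of the 500 protein-coding genes nearest in length, which was -0.73. Nes stood 2.25 above its median of -0.08, Lmna 0.90 above -0.10, Vim 0.78 above 0.0026 and Lmnb2 1.19 above 0.06. Des stood 0.49 above a median of 0.14 and Synm was at -0.60 relative to -0.22. Relative to genes of like length, 1 of the 10 genes was called higher with OSM (Nes) and 1 lower (Krt18), and their median was 0.68. Over all compared genes, 484 were then higher and 734 lower, with a median of -0.06.

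**Figure D3:**
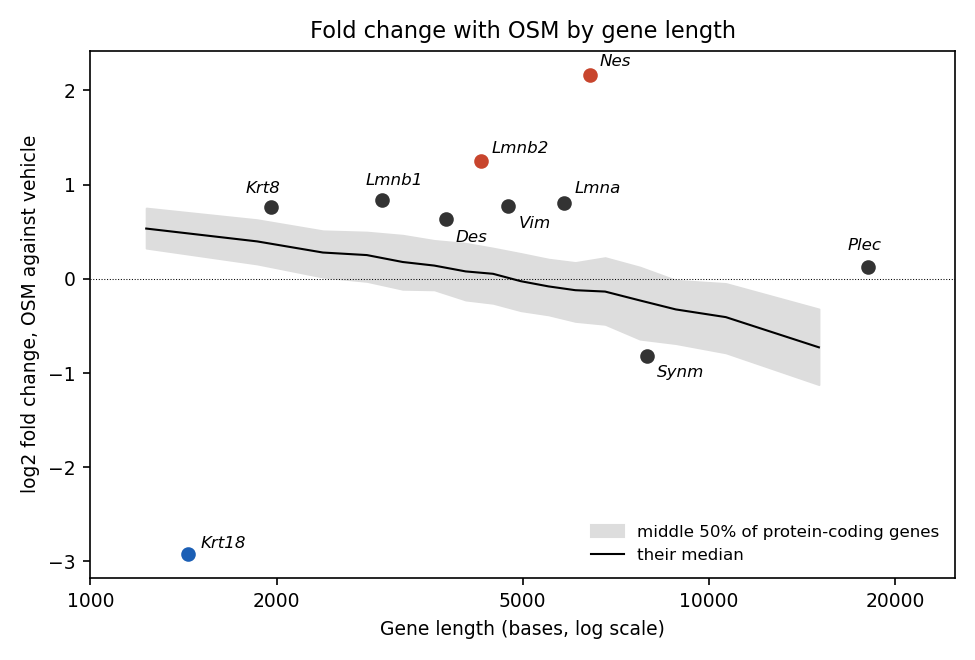
log2 fold change of the 10 genes with OSM against vehicle by gene length in bases (log axis), with the median and the middle 50% of protein-coding genes in 16 groups of about equal size by length. The median declines from 0.53 in the shortest genes to -0.73 in the longest. Synm and Krt18 lie below the grey band, Plec lies to the right of its end, and the other genes lie above it. Red and blue mark genes called higher and lower.

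Related genes were grouped in 7 lists. Among 20 other cytoplasmic intermediate filament genes, 12 did not reach 10 counts over the vehicle and OSM libraries, and 4 had 0 in every library. Of the 8 compared, 0 were higher with OSM and 1 was lower (median -0.48). This was Krt19, a keratin of simple epithelia that pairs with keratin 8, with 18 counts with vehicle, 20 with IL-6 and 0 with OSM, at least 7.09-fold lower against the floor, with a counting interval that reaches -2.38 on the log2 scale.

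Among 23 genes of the nuclear lamina, the inner nuclear membrane and the LINC complex, which joins lamina and cytoskeleton, 22 were compared, with 0 higher, 1 lower and a median of -0.12. Syne1, which encodes nesprin 1, had 2578 counts with vehicle, 2818 with IL-6 and 1161 with OSM, giving a log2 fold change of -1.39 (-1.49 to -1.29). Genes of like length had a median of -0.78, and relative to these Syne1 was not called.

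The plakin and desmosome list, which holds the other cytolinkers and the junctions where desmin ends, had 11 of 14 genes compared, 0 higher, 5 lower and a median of -0.98. Dsp, which encodes desmoplakin, had 16515 counts with vehicle, 18056 with IL-6 and 8613 with OSM, giving a log2 fold change of -1.18 (-1.22 to -1.14). Macf1, a plakin that binds actin and microtubules, had 5090, 5016 and 1792 counts, giving a log2 fold change of -1.75 (-1.83 to -1.67). Dst, which encodes dystonin, was at -1.11 (-1.15 to -1.07) and Dsg2, which encodes the desmosomal cadherin desmoglein 2, at -1.33 (-1.46 to -1.19). Ppl, which encodes periplakin, had 11, 6 and 0 counts, at least 4.34-fold lower with OSM against the floor, with a counting interval that reaches -1.57. Relative to genes of like length, 1 of the 11 was called lower (Ppl), and the median was -0.33. With counts divided by 2, Ppl was not called.

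Chaperones and turnover factors of filaments were compared for 14 of 14 genes, with 2 higher, 0 lower and a median of 0.08. Cryab, which encodes the desmin chaperone alpha-B crystallin, had 56207 counts with vehicle, 59468 with IL-6 and 149051 with OSM, giving a log2 fold change of 1.17 (1.15 to 1.18). Hspb1, which encodes the small heat shock protein HSP27, had 9114, 9835 and 48143 counts, giving a log2 fold change of 2.16 (2.13 to 2.19). The OSM library was the high one for both. Relative to genes of like length, Hspb1 was called and Cryab (0.69) was not.

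Costamere, Z-disc and desmin partner genes were compared for 26 of 26, with 0 higher, 7 lower and a median of -0.51. Nebl, which encodes the Z-disc protein nebulette, had 6426 counts with vehicle, 6767 with IL-6 and 2008 with OSM, giving a log2 fold change of -1.92 (-1.99 to -1.85). The spectrin gene Sptbn1 was at -1.54 (-1.59 to -1.49), Utrn (utrophin) at -1.47 (-1.60 to -1.34), Dmd (dystrophin) at -1.44 (-1.55 to -1.32) and Ank2 (ankyrin-B) at -1.36 (-1.45 to -1.28). These genes are long, and relative to genes of like length 2 of the 26 were called lower, among them Nebl, and 1 higher, with a median of -0.24.

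Of 15 genes for kinases and kinase activators that phosphorylate filament proteins or act upstream, 12 were compared, and 0 were higher or lower. The median was -0.20, and 0.20 relative to genes of like length. Mapkapk2, the one with most counts, had 9904 with vehicle, 10469 with IL-6 and 22482 with OSM, giving a log2 fold change of 0.94 (0.91 to 0.98).

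In a list of 16 genes known from cardiomyocyte dedifferentiation, without Vim and Nes, 15 were compared, with 4 higher, 1 lower and a median of 0.53. Runx1, a transcription factor, had 129 counts with vehicle, 105 with IL-6 and 776 with OSM, giving a log2 fold change of 2.35 (2.08 to 2.63). Nppb, which encodes the B-type natriuretic peptide, was at 1.72 (1.66 to 1.77), the adaptor gene Dab2 at 1.79 (1.09 to 2.56) and Ankrd1, which encodes a stress-responsive repeat protein of the sarcomere, at 1.14 (1.13 to 1.15). Kit, a receptor tyrosine kinase, had 68 counts with vehicle, 18 with IL-6 and 21 with OSM, and was lower with either cytokine, at -1.94 (-2.72 to -1.21) with OSM and -2.02 (-2.85 to -1.25) with IL-6. Relative to genes of like length, 3 of the 15 were higher with OSM and 0 lower, with Ankrd1 (0.89) and Kit (-1.60) not called. With counts divided by 2, 3 were higher and 0 lower with OSM, with Dab2 and Kit not called, and Kit was not called with IL-6. With IL-6 against vehicle, Kit was the sole gene called in the last 6 of the 7 lists, and 1 of 6 compared genes was lower in the list of other filament genes, the neurofilament gene Nefm, a call also lost with counts divided by 2.

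**Figure D4:**
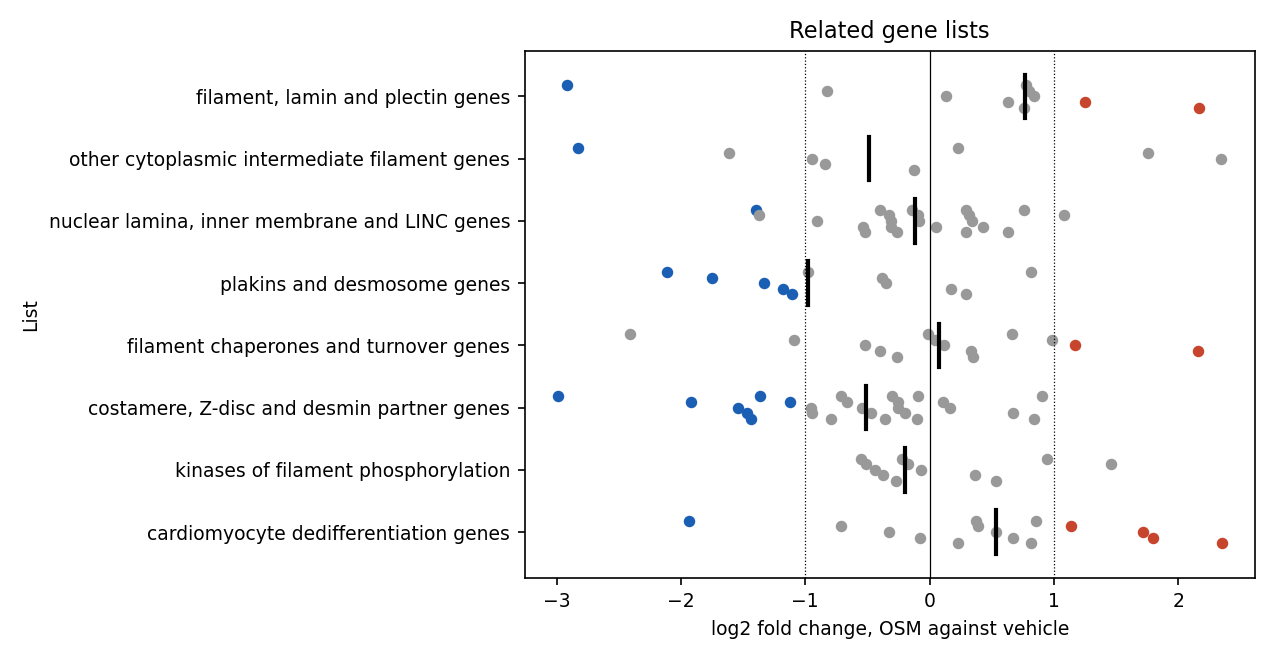
log2 fold change with OSM against vehicle of each compared gene of the 10 and of the 7 related lists, with dotted lines at 2-fold and black bars for the median of each list. Red and blue mark genes called higher and lower, and medians run from -0.98 for the plakin and desmosome genes to 0.77 for the 10 genes.

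Vimentin, nestin, keratins and lamins are also made by non-muscle cells, so marker genes of 6 other cell types were measured. In bulk RNA, fewer cells of a type and less RNA per cell cannot be told apart. The 8 endothelial markers had a summed FPKM of 7.74 with vehicle, 7.75 with IL-6 and 8.57 with OSM, with 0 of 8 called between OSM and vehicle and Cdh5 the most abundant. The 8 fibroblast markers summed to 0.860, 0.770 and 1.08, with 0 of 5 compared genes called, Dcn the most abundant, Col1a1 at 0 with IL-6, and Col1a1, Tcf21 and Postn at 0 with OSM. Dcn gave 0.332, 0.303 and 0.751 of these sums, and it alone of the 5 compared had a log2 fold change above 0 with OSM (median -0.34). Smooth muscle and pericyte markers summed to 33.1, 35.6 and 23.3, of which Abcc9, a potassium channel subunit that cardiomyocytes also express, gave 19.9, 22.7 and 8.01. Of 6 compared, 0 were higher and 1 was lower (Abcc9), which was not called relative to genes of like length. Of these 6, 4 had a log2 fold change above 0 with OSM, with a median of 0.32, and 0.05 relative to genes of like length. Tagln was at 0 with vehicle, Cnn1 with IL-6, and Kcnj8 with vehicle and IL-6.

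Macrophage markers summed to 14.0 with vehicle, 14.9 with IL-6 and 40.2 with OSM, a ratio of 2.88 between OSM and vehicle. Of these sums, the lysosomal gene Cd68, with 382, 448 and 1419 counts, was the most abundant, and of 6 compared genes 1 was higher (Cd68) and 0 were lower, while Fcgr1 and C1qa were at 0 in each library and Adgre1 had 0 with IL-6. The receptor gene Csf1r of the same list had 187, 166 and 209 counts. Of the 6 compared, 4 had a log2 fold change above 0, with a median of 0.97, and 0.51 relative to genes of like length. Between OSM and IL-6, 2 of 5 compared macrophage markers were called higher, and 0 relative to genes of like length. Relative to genes of like length, Cd68 (1.14) was not called. Mesothelial and epithelial markers, which share Krt19 and Krt7 with the list of other filament genes, summed to 0.489, 0.980 and 0.354. Epcam and Cdh1 were at 0 in each library, Upk1b and Krt7 with vehicle and IL-6, and Krt19, the most abundant, with OSM. Of 3 compared between OSM and vehicle, 0 were higher and 1 was lower (Krt19). Between IL-6 and vehicle, 1 of 4 was higher and 0 were lower. This was Msln, which encodes mesothelin, with 1 count with vehicle, 33 with IL-6 and 13 with OSM, at a log2 fold change of 4.94 (2.37 to 10.29), and it was called with counts divided by 2 as well. Schwann and glial markers summed to 1.04, 1.04 and 0.702, with Ncam1 the most abundant and 1 of 2 compared genes lower, a call lost with counts divided by 2. S100b and Sox10 were at 0 in each library, Cdh19 with vehicle and IL-6, Mbp with IL-6 and OSM, and Gfap with IL-6. The part of any of these cells in the values of Nes, Vim, Krt8 or Krt18 was not tested.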

How the data were processed

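RNA of ACMs was poly-A selected, sequenced as paired reads and mapped to GRCm39. The authors deposited raw counts per gene made with featureCounts. The submitters' processing notes give fastp, HISAT2 2.2.1, featureCounts 2.0.6 and edgeR 4.0.16, the paper gives other versions of featureCounts and edgeR, and strand use is not stated. The authors also deposited FPKM, which equals the count divided by gene length and by 1 constant per library, 0.316% to 0.453% above the TMM-scaled total.

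From the counts, TMM factors were computed per pair of libraries (edgeR 4.0.16, R 4.3.3). Genes reaching 10 counts in the 2 libraries combined were compared by the log2 ratio of scaled counts. Exact 95% intervals were of the Clopper-Pearson kind, for the share of a gene's counts found in 1 of the 2 libraries (scipy 1.17.1). Changes of ratios of genes used a normal approximation on the log scale. With 0 counts, folds are bounds against 3 counts per library, which is 0.120 CPM with vehicle, 0.114 with IL-6 and 0.0975 with OSM. Transcripts were matched to GENCODE M39 with blastn.

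Members and lists were chosen with earlier results of these data known. Named from each list were up to 6 called genes with the largest change with OSM against vehicle, or, with none called, the gene with most counts. From marker lists, the most abundant gene by FPKM summed over the libraries and markers at 0 were named, with Ryr2, Ttn, Msln and Nefm added later as called genes and Csf1r as a marker with counts, and for the 3 members that changed most, the 3 nearest genes. Of the genes this rule names, 2 are not reported here. Alternatives were other scalings (DESeq2 1.42.0 size factors, upper quartile, total counts with and without mitochondrial genes), other filters, intervals and folds, edgeR's exact test at assumed coefficients of variation, a prior count, FPKM ratios, removal of the length trend and, added later, halving of the counts.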

Additional observations from a re-analysis of the deposited data

How the results depend on the processing

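No paired analysis was possible because each treatment had 1 library, and for the same reason no library could be left out. Of the 10 genes, 3 were called with OSM against vehicle, 1 with IL-6 against vehicle and 1 with OSM against IL-6. In the same order, a 1.5-fold limit gave 5, 1 and 6, a 4-fold limit 1, 1 and 1, the point estimate alone 3, 1 and 3, at least 100 counts over the pair 2, 0 and 1, and counts divided by 2, an alternative chosen after seeing the data, 1, 1 and 1. With a biological coefficient of variation assumed for edgeR's exact test, 0.2 gave 3, 1 and 1, and 0.4 gave 0, 0 and 0. Nes was called higher with OSM, against vehicle and against IL-6, under every alternative other than the last. With OSM against vehicle, Lmnb2 was not called under total counts, total counts without mitochondrial genes, the 99% interval, removal of the length trend, a 4-fold limit, counts divided by 2 and a coefficient of 0.4. Krt18 was not called under the last 3 of these and with at least 100 counts.

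Over all genes, 1425 were called with OSM against vehicle, 543 with IL-6 against vehicle and 1502 with OSM against IL-6. In the same order, at least 100 counts gave 753, 19 and 731, 1.5-fold 3207, 902 and 3219, 4-fold 256, 96 and 275, the point estimate 3599, 2058 and 3538, counts divided by 2 gave 824, 109 and 820, and a coefficient of 0.4 gave 54, 1 and 77. For IL-6 against vehicle, the 99% interval and a coefficient of 0.2 each gave 237. Stricter limits, wider intervals and higher filters call fewer genes by construction, and the cause of other differences was not tested. Mitochondrial genes held 17.4% of the counts with vehicle, 16.1% with IL-6 and 13.6% with OSM. Scaling without them moved the median of all genes by -0.13 with OSM against vehicle and -0.12 against IL-6, and the share of higher genes among those called from 40.8% to 31.3% and from 43.9% to 33.0%.

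Over the scalings, the prior count and FPKM, the log2 fold change with OSM against vehicle lay between 2.04 and 2.19 for Nes, 1.12 and 1.27 for Lmnb2, -3.05 and -2.68 for Krt18, 0.51 and 0.66 for Des, 0.68 and 0.83 for Lmna, and 0.0038 and 0.15 for Plec. No called value changed sign. With 1 added to each count, every change of a ratio of genes stayed within its interval, and the ratio of Krt8 to Krt18 with IL-6 had no value because Krt18 had 0 counts. Counting error is wide for genes with few counts, such as Krt8 and Krt18, and variation between cultures was not measured.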
